A study of Homo sapiens with 4 samples.

Results

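The genes described here were low in A549 cells that received one CEBPB siRNA and near the control level in cells that received the other. They number 148 of the 9122 genes with an authors' mean normalized count of at least 100, in a table of 57820 genes. Members were chosen by their measured values in the same 4 libraries. A member had a log2(FPKM + 1) with CEBPB siRNA-1 at least 1 below the mean of the control libraries, and a value with CEBPB siRNA-2 within 0.25 of that mean. FPKM, a fragment count per kilobase of transcript and per mapped total, is a level that allows for transcript length and library depth. The siRNA-1 and siRNA-2 differences of the members are therefore what chose them, and they are given as a description with no test.

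The cells were A549, an established line from a human lung adenocarcinoma with active NRF2, a transcription factor of the antioxidant response, and the series was set up to find CEBPB-dependent transcripts in them. There were 4 libraries: 1 from cells transfected with CEBPB siRNA-1, 1 from cells transfected with CEBPB siRNA-2 and 2 from cells transfected with control siRNA. All cells had fresh medium at 24 h after transfection and were harvested after 24 h more. With 1 library per siRNA, an effect of siRNA-1 and a property of that library cannot be told apart, and the labels do not say whether the controls were separate cultures, so p-values measure only the spread between these libraries.

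CEBPB is a basic leucine zipper transcription factor of the C/EBP family that binds DNA at enhancers and promoters of inflammatory, metabolic and differentiation genes. An siRNA is loaded into an Argonaute protein and directs cleavage of a transcript with full complementarity. As general background, an siRNA can also lower transcripts whose 3' UTR pairs only with its seed, the short stretch near its 5' end, much as a microRNA does. For that reason knockdown studies often use more than a single siRNA against their target, and transcripts lowered by one of them only form a class of their own.

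CEBPB itself was low with both siRNAs. It was at 12.9 FPKM with siRNA-1 and 10.97 FPKM with siRNA-2, against 78.7 and 80.9 FPKM in the controls. In the limma fit its log2 difference was -2.54 with siRNA-1 (adjusted p = 0.00585) and -2.75 with siRNA-2 (adjusted p = 0.0162). CEBPB is thus no member, and neither siRNA library overlapped the controls. The columns summed to between 494066 and 528606 FPKM and listed 13752 to 14325 genes at 1 FPKM or more. Epithelial KRT8 was at 1226 FPKM with siRNA-1, 1467 FPKM with siRNA-2, and 1835 and 2517 FPKM in the controls. KRT18 was at 568 FPKM with siRNA-1, 1351 FPKM with siRNA-2, and 1740 and 2502 FPKM in the controls. KRT19 was higher with both siRNAs, at 5.32 FPKM with siRNA-1 and 7.38 FPKM with siRNA-2, against 2.41 and 3.28 FPKM in the controls. Log2 differences with siRNA-1 and siRNA-2 were -0.15 and -0.82 for CDH1 and -0.39 and -0.84 for EPCAM. NQO1 was at 426 FPKM with siRNA-1 and 519 FPKM with siRNA-2, against 828 and 772 FPKM in the controls. AKR1B10 was at 471 FPKM with siRNA-1 and 529 FPKM with siRNA-2, against 497 and 624 FPKM in the controls. NKX2-1 and SFTPB, lung lineage markers, were listed at 0 in all 4 libraries, and SFTPC was at 0.914 FPKM in control 1 and 0 in the others. Of 12 leukocyte, endothelial, fibroblast and erythroid markers looked up, 11 were in the table, and they summed to 21.2 FPKM with siRNA-1, 6.93 FPKM with siRNA-2, and 7.82 and 10.4 FPKM in the controls. CD68 at 16.8 FPKM and COL1A1 at 4.22 FPKM made up most of the siRNA-1 sum, while PTPRC, CD3E, VWF, CDH5 and HBB were at 0 in all libraries. Their part in the values below was not tested. In bulk RNA, fewer cells with a transcript and less of it per cell cannot be told apart.

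The 3' UTRs of the members shared a short sequence more often than those of other genes did. The search used only the 8683 non-member genes with a mean count of at least 100 and a 3' UTR of at least 30 bases. For each of the 4096 hexamers, genes with and without it in the 3' UTR were compared in their siRNA-1 difference, adjusted for 3' UTR length. The lowest-ranked hexamer was GCCCGT, held by 732 of those genes, for which the siRNA-1 difference stood at -0.14 log2 units relative to the genes without it. The ranking value, the difference over its standard error, was -6.23 for GCCCGT and -4.24 for the next hexamer, AGGCGT, and it served only to order the hexamers. By the siRNA-2 difference the same hexamer ranked 3428 from the lowest, with a ranking value of 1.84. By the difference of control 1 minus control 2 it ranked 3605, with a ranking value of 3.02 between libraries of the same control siRNA. Its reverse complement ACGGGC, which also holds a CpG, ranked 1443 by the siRNA-1 difference. The 5 lowest-ranked hexamers by that difference all held a CpG. The ranking was adjusted for 3' UTR length and not for base composition, so a part of base composition in it was not tested. The members had no part in the choice of GCCCGT, although the libraries are the same ones that chose the members.

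The stretches below are shown because they come from 8 of the 10 members with the lowest siRNA-1 difference among those that hold the hexamer. Each is a window of 30 bases of the 3' UTR, 5′ to 3′ on the transcript strand, with GCCCGT in capitals. They were read from GENCODE 29 transcripts matched by Ensembl gene ID, and the coordinates are those of GRCh38.
SDC1 (chr2:20201838-20201867, minus strand): cacgttggagaaGCCCGTgtgagaagtgaa
B3GALT6 (chr1:1233448-1233477, plus strand): ccaggtggaggtGCCCGTtcctggacctca
ELOF1 (chr19:11553215-11553244, minus strand): ccaccttctagtGCCCGTggccggggattc
FMNL1 (chr17:45246902-45246931, plus strand): ggccgccgcagtGCCCGTcggcgtcccccg
TIMM17B (chrX:48893448-48893477, minus strand): tgagtatttaaaGCCCGTtttgaaatgcct
G3BP1 (chr5:151805149-151805178, plus strand): ttcctaatcataGCCCGTaagaaggaatgt
ME2 (chr18:50947406-50947435, plus strand): ttctaacatacaGCCCGTaccacatccagg
CMIP (chr16:81711145-81711174, plus strand): ctgtacagaacaGCCCGTtgatggtttatt
The bases on either side of the hexamer differed from gene to gene. B3GALT6 held 5 copies in its 3' UTR, and SDC1 and ELOF1 held 2 each. For ELOF1 and CMIP the longest annotated 3' UTR of the gene did not hold the hexamer, so their windows depend on the transcript used.

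Of the 141 members with a usable 3' UTR, 53 held GCCCGT there (37.6%), against 732 of 8683 other genes (8.43%). That came to 73 sites in the members, or 0.267 per kb of 3' UTR, against 0.0530 per kb in the other genes, and 14 members held 2 or more. Genes that were low with both siRNAs, with an siRNA-1 difference of at most -1 and an siRNA-2 difference of at most -0.25, held it in 17 of 226 cases (7.52%). Genes just above the siRNA-1 threshold, between -1 and -0.5 with an siRNA-2 difference within 0.25, held it in 78 of 561 cases (13.9%). Where both differences were within 0.25 the count was 211 of 2738 (7.71%). Genes at least 1 higher with siRNA-1 and within 0.25 with siRNA-2 held it in 8 of 79 cases (10.1%). Genes at least 1 lower with siRNA-1 and at least 0.25 higher with siRNA-2 held it in 2 of 23 cases (8.70%). The median GC content of the 3' UTRs was 52.2% in that small set and 39.8% in the set low with both siRNAs. The members thus had a higher share than each of these sets, including both other sets that were low with siRNA-1. No test was made of it. The compared sets were all among the genes in which the hexamer was picked for its low siRNA-1 difference. Differences in share between those sets, such as the 13.9%, are therefore partly set by that choice.

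**Figure D1:**
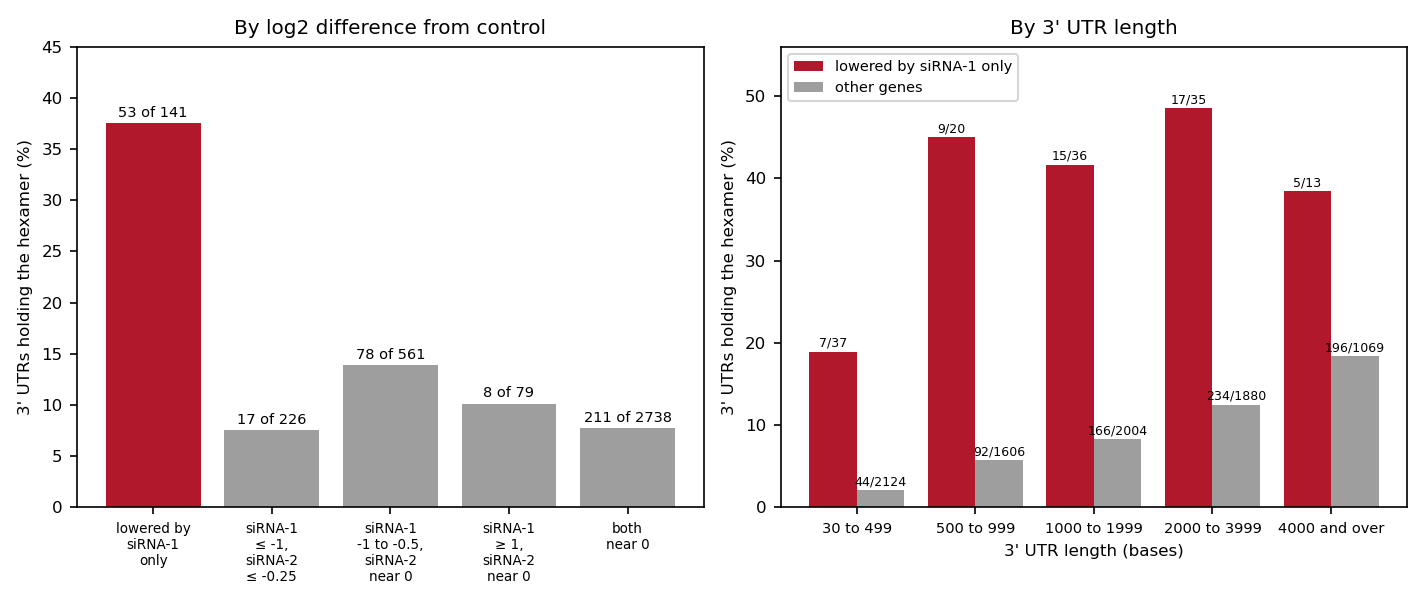
Share of 3' UTRs (%, bars from 0) that hold GCCCGT, with counts above the bars. The left panel splits genes by their log2 difference from the control mean with each siRNA, where near 0 means within 0.25, and the right panel splits members (red) and other genes (grey) by 3' UTR length in bases. The members stand at 37.6%, against 7.52% for genes low with both siRNAs, and lie above the other genes in all 5 length classes.

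Length and base composition of the 3' UTRs were compared as well. The median length was 1376 bases in members, against 1266 bases in other genes, and the median GC content was 49.2%, against 41.7%. The members' 3' UTRs also held 17.9 CpG per kb, against 11.3 per kb in other genes. Within every length class the share with the hexamer was higher in members. In 3' UTRs of under 500 bases it was 18.9% of members, against 2.07% of other genes, and in those from 2000 to under 4000 bases 48.6%, against 12.4%. Across 6 classes of GC content the shares were 22.7%, 33.3%, 31.3%, 12.5%, 47.6% and 53.3% in members from low to high GC, against 2.21%, 5.21%, 7.45%, 11.8%, 14.1% and 16.1% in other genes. Only in the fourth class, 45 to 50% GC, were the shares close to each other.

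The hexamer was also looked for elsewhere in the transcripts. Its reverse complement was in 14 of 141 member 3' UTRs (9.93%), against 6.75% of other genes. The coding sequence held GCCCGT in 33.3% of members, against 18.9% of other genes, and the 5' UTR held it in 3.55% of members, against 6.70%. The coding share was 34.8% in the small set lower with siRNA-1 and higher with siRNA-2. It was 28.5% in the set between -1 and -0.5 and 22.6% in the set low with both siRNAs. Where both differences were within 0.25 it was 15.5%, and in the set higher with siRNA-1 16.5%. Such a coding share was thus not particular to the members. Among the members without GCCCGT in the 3' UTR used, 5 held it in the longest annotated 3' UTR and 28 more only in the coding sequence. Among members, the 10 with an siRNA-1 difference of at most -2 and a 3' UTR held it in 7 cases (70%), while the 3 classes between -2 and -1 held it in 33.3% to 35.8%. By number of sites, the mean siRNA-1 difference was -1.53 (median -1.29) for the 14 members with 2 or more, -1.39 (median -1.27) for the 39 with 1 and -1.32 (median -1.26) for the 88 with none. The rule cuts these values off at -1, which bounds the differences between such groups of members. In other genes the mean siRNA-1 difference was -0.11 (median -0.08) with 2 or more sites (n = 103), -0.06 (median -0.08) with 1 (n = 629) and 0.02 (median -0.02) with none (n = 7951). The hexamer was picked in these other genes for its low siRNA-1 difference, so lower values with it repeat that choice. The mean siRNA-2 difference of these other genes was 0.09, 0.07 and 0.03 in the same order. The CEBPB transcript itself, from chromosome 20, holds the hexamer 3 times in its 1956 bases, at position 527 in the coding sequence and at positions 1469 and 1552 in the 3' UTR. The siRNA sequences are not given in the sources used here, so whether any of this pairs with siRNA-1 was not tested. A match is a description of letters in a window and not a site of action.

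The rule set the levels that follow. The share of genes past the siRNA-1 threshold in the same direction was 4.48% (409 of 9122), and 1.62% met the whole rule. Of those 409 genes, 148 (36.2%) were within 0.25 with siRNA-2, a range that held 62.7% of all 9122. The mirror rule, at least 1 lower with siRNA-2 and within 0.25 with siRNA-1, found 8 genes (0.0877%). Over all 9122 genes, 5.28% were at least 1 higher with siRNA-1 and 1.18% at least 1 lower with siRNA-2. The controls differed from each other by 1 or more in 27 genes (0.296%).

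**Figure D2:**
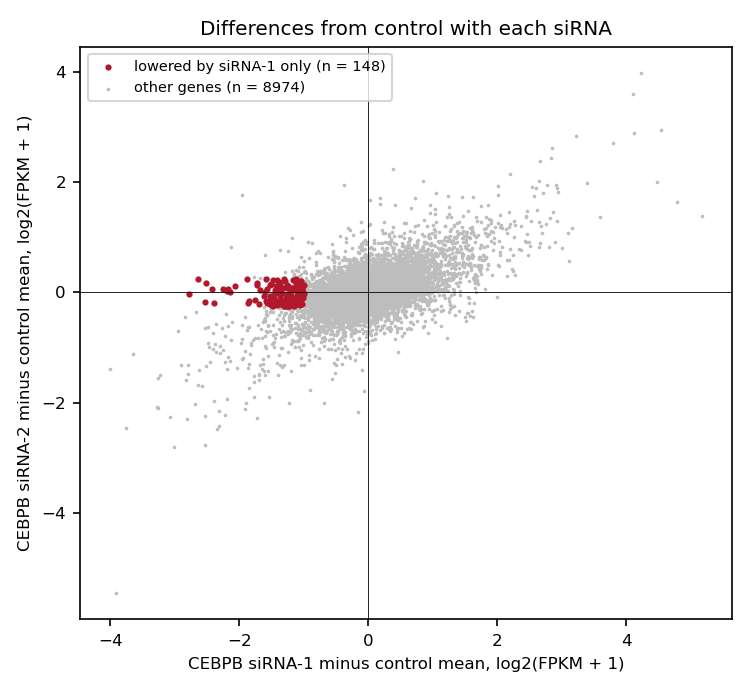
Log2(FPKM + 1) difference from the control mean with siRNA-1 (x axis) and siRNA-2 (y axis), 1 point per gene with a mean count of at least 100. The 148 members (red) fill a band at x of -1 or below and within 0.25 of 0 on the y axis by construction, and the other genes (grey) spread along the diagonal.

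Among the members the siRNA-1 difference ran from -2.77 to -1.001, with a median of -1.26 and quartiles of -1.48 and -1.12, beside a median of -0.04 over all 9122 genes. As a level, siRNA-1 left a median of 37.8% of the control mean FPKM (9.06% to 47.97%) and siRNA-2 a median of 95.3% (79.2% to 119.9%). Only 11 members were at -2 or below, 23 lay above -2 and at or below -1.5, and 114 lay above -1.5. The siRNA-2 value fell between the controls in 47 members, above both in 37 and below both in 64. By sign alone, 58 members were above and 90 below the control mean with siRNA-2. The siRNA-1 value was under both controls in all 148, as in 45.5% of all genes, and in 125 it was at least 1 log2 unit under the lower control.

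The rule did not use the gap between the controls. Its median size was 0.125 log2 units in members and 0.146 over all genes. It exceeded 0.5 in 7 members, named here after their values were seen: SFT2D1, ELMOD2, SLC29A4, FRMD3, IFT81, TMEM106B and C7orf26. SFT2D1 was at 5.24 FPKM with siRNA-1 and 15.1 FPKM with siRNA-2, against 18.2 and 8.63 FPKM in the controls, so the distance between the controls was nearly as large as that to siRNA-1. Expression was moderate, with a median control level of 21.5 FPKM (3.51 to 670) and a median mean count of 427 (100.5 to 14107.6), beside 15.75 FPKM and 406 over all genes. There were 25 members under 10 FPKM and 14 at 100 FPKM or more in the controls.

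At the thresholds members and non-members met without a gap. On the log2 scale SIDT2 (-1.001) and ATXN7L3B (-1.003) were just inside the siRNA-1 limit, and MRPL1 (-0.999) and LRP5 (-0.997) just outside. SLC29A4 (-0.249) and ALKBH5 (-0.246) were just inside the siRNA-2 limit, with AVPI1 (-0.252) and ZNF503 (-0.255) outside. By mean count PACRGL (100.5) was the nearest inside and PPIL3 (96.4) the nearest outside.

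The cell surface and matrix members included the deepest difference. TGM2, transglutaminase 2, which cross-links proteins in and outside the cell, was at 20.7 FPKM with siRNA-1 and 144.7 FPKM with siRNA-2, against 136.8 and 158.8 FPKM in the controls. SDC1, the heparan sulfate proteoglycan syndecan-1, was at 8.64 FPKM with siRNA-1 and 70.1 FPKM with siRNA-2, against 58.5 and 59.7 FPKM in the controls. The siRNA-1 library was the only low one for both, with differences of -2.77 and -2.64, and siRNA-2 lay between the controls for TGM2 and above them for SDC1. SDC1's relatives did not share this: SDC4 was at 32.4 FPKM with siRNA-1, against 13.6 and 13.6 FPKM in the controls, a rise of 1.19 log2 units in limma (adjusted p = 0.0151), and SDC3 differed by 0.21. FSTL4, a follistatin-like secreted protein, was at 1.72 FPKM with siRNA-1 and 11.7 FPKM with siRNA-2, against 10.9 and 12.1 FPKM in the controls. The other 5 of the 8 surface members, PLXND1 (a semaphorin receptor), PTPRM (a receptor tyrosine phosphatase), MYADM, MALL and TNS4 (tensin 4, at focal adhesions), lay between -1.18 and -1.04.

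**Figure D3:**
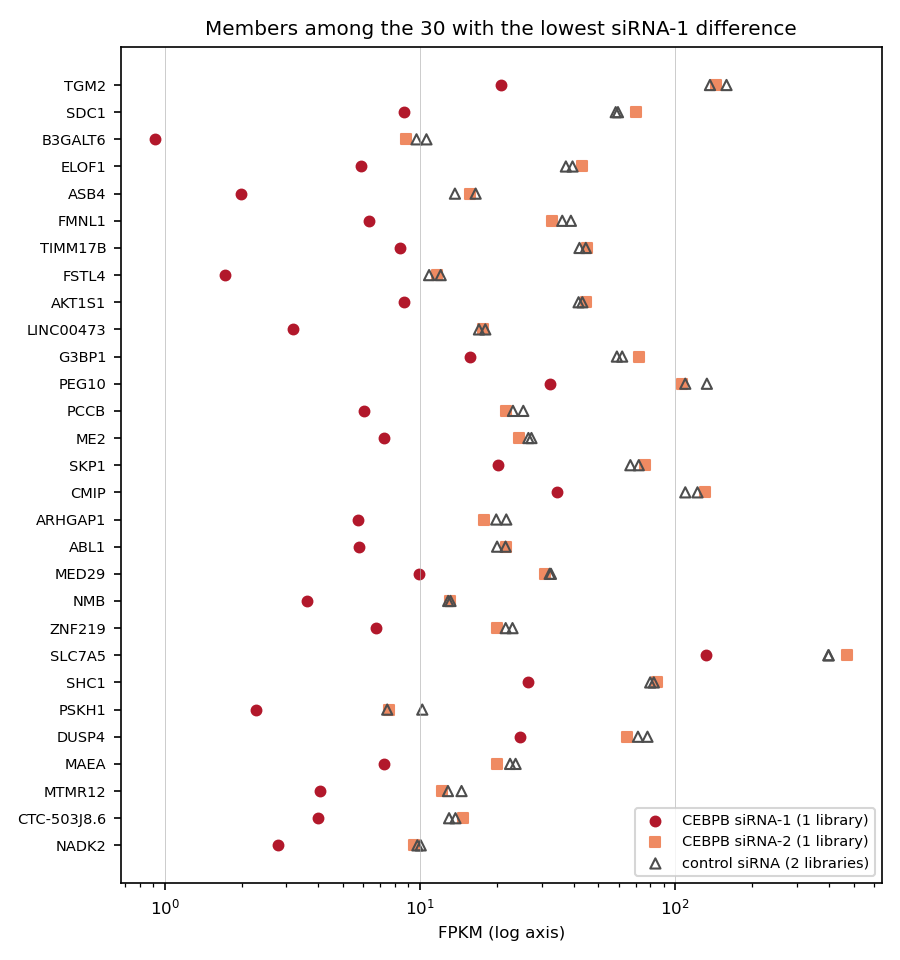
FPKM (log axis) in each library for members among the 30 with the lowest siRNA-1 difference, with siRNA-1 as circles, siRNA-2 as squares and the controls as triangles. In every row the siRNA-1 circle lies left of the other 3 points, as for TGM2 at 20.7 FPKM against 136.8 to 158.8 FPKM. The rule fixes this against siRNA-2 and the control mean, but not against each control.

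Among glycosylation enzymes B3GALT6 had the lowest siRNA-1 level relative to control of all members. It adds a galactose to the linker through which glycosaminoglycan chains join proteoglycan cores such as syndecans. B3GALT6 was at 0.919 FPKM with siRNA-1 and 8.85 FPKM with siRNA-2, against 10.6 and 9.70 FPKM in the controls, so that 9.06% of the control mean remained with siRNA-1. B4GALT7 and B3GAT3, which build the same linker, differed by -0.15 and -0.16 with siRNA-1. XXYLT1, a xylosyltransferase that extends O-glucose glycans on EGF-like repeats, was at 3.22 FPKM with siRNA-1 and 8.98 FPKM with siRNA-2, against 10.8 and 10.7 FPKM in the controls. GXYLT1, which adds the preceding sugar of the same glycan, was higher with siRNA-1 by 1.84 (limma adjusted p = 0.0135). The remaining 4, PMM2 (mannose phosphate mutase), SRD5A3 (dolichol synthesis), B4GALT6 (lactosylceramide synthesis) and POMGNT2 (O-mannose glycans of dystroglycan), had siRNA-1 differences between -1.51 and -1.07.

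The signalling group held 9 members with a median siRNA-1 difference of -1.55. AKT1S1, also called PRAS40, an inhibitory subunit of mTORC1, was at 8.66 FPKM with siRNA-1 and 44.7 FPKM with siRNA-2, against 43.3 and 41.8 FPKM in the controls. The tyrosine kinase ABL1 was at 5.79 FPKM with siRNA-1 and 21.6 FPKM with siRNA-2, against 21.6 and 20.1 FPKM in the controls. SHC1, an adaptor of receptor tyrosine kinases, was at 26.6 FPKM with siRNA-1 and 84.9 FPKM with siRNA-2, against 82.4 and 79.8 FPKM in the controls. In these 3 genes siRNA-2 and the controls lay close together and siRNA-1 stood apart. DUSP4, a MAP kinase phosphatase, had 24.7 FPKM with siRNA-1 and 65.0 FPKM with siRNA-2, against 77.9 and 71.4 FPKM in the controls, and PSKH1, CAMKK2, ERN1 (the unfolded protein sensor IRE1), MKNK2 and MST1R (the receptor RON) completed the group.

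The cAMP phosphodiesterases, which break down the second messenger cAMP, contributed 3 members. PDE4D was at 24.1 FPKM with siRNA-1 and 47.3 FPKM with siRNA-2, against 51.4 and 60.7 FPKM in the controls. PDE4B was at 3.95 FPKM with siRNA-1 and 8.99 FPKM with siRNA-2, against 9.40 and 9.88 FPKM in the controls. PDE7B was at 2.71 FPKM with siRNA-1 and 9.04 FPKM with siRNA-2, against 9.17 and 9.08 FPKM in the controls. For each of the 3, siRNA-1 was far below both controls and siRNA-2 slightly below them. PDE7A, no member, was at 12.3 FPKM with siRNA-1 and 14.7 FPKM with siRNA-2, against 19.8 and 15.8 FPKM in the controls (limma adjusted p = 0.166 with siRNA-1). PDE4B and PDE7B, the 2 with a 3' UTR in the search, did not hold the hexamer.

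Small GTPase and actin regulators had 5 members. FMNL1, a formin that elongates actin filaments, was at 6.29 FPKM with siRNA-1 and 32.8 FPKM with siRNA-2, against 39.0 and 36.1 FPKM in the controls. ARHGAP1, which switches off small GTPases that control actin, was at 5.71 FPKM with siRNA-1 and 17.9 FPKM with siRNA-2, against 21.8 and 19.9 FPKM in the controls. In both genes siRNA-1 was far below the other libraries, and siRNA-2 was also below the controls, with differences of -0.19 and -0.21 log2 units. NET1 (an exchange factor that activates such GTPases), ACTR2 (a subunit of the ARP2/3 complex) and MARCKSL1 (an actin-binding protein) lay between -1.27 and -1.15.

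The transporter members included both chains of a heterodimer. SLC7A5, the large neutral amino acid transporter LAT1, was at 132 FPKM with siRNA-1 and 473 FPKM with siRNA-2, against 399 and 398 FPKM in the controls. SLC3A2, the heavy chain CD98 that carries LAT1 to the membrane, was at 100 FPKM with siRNA-1 and 233 FPKM with siRNA-2, against 205 and 244 FPKM in the controls. Both subunits were thus low with siRNA-1, at 33.2% and 44.6% of the control mean. Of related amino acid transporters, SLC1A5 differed by 0.39, SLC7A11 by 0.08 and SLC7A6 by 0.47 with siRNA-1, none past the limma threshold. SLC7A7, which also pairs with SLC3A2, was lower with siRNA-1, at -1.83 log2 units (limma adjusted p = 0.00941), but it differed by -0.95 with siRNA-2 and was no member. The mitochondrial ADP/ATP carrier SLC25A6, the monoamine and nucleoside transporter SLC29A4 and the pacemaker channel HCN2 were the other members of this kind. SLC25A6 has close paralogs, and reads shared with them make its value less certain.

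Mitochondrial proteins were the largest of the named role groups, with 12 members and a median siRNA-1 difference of -1.24. Roles were given to members only, so no role count in this report has a share over all measured genes beside it. Group sizes are therefore a description. TIMM17B, a subunit of the inner membrane translocase, was at 8.34 FPKM with siRNA-1 and 45.3 FPKM with siRNA-2, against 42.2 and 44.6 FPKM in the controls. PCCB, a subunit of propionyl-CoA carboxylase, was at 6.02 FPKM with siRNA-1 and 21.8 FPKM with siRNA-2, against 25.4 and 23.1 FPKM in the controls. The malic enzyme ME2 was at 7.24 FPKM with siRNA-1 and 24.5 FPKM with siRNA-2, against 27.3 and 26.6 FPKM in the controls. Each was at about the control level with siRNA-2, from slightly above both controls for TIMM17B to slightly below both for PCCB and ME2. The others spanned NADK2 (mitochondrial NAD kinase), ISCU (iron-sulfur cluster scaffold), SDHAF1 (complex II assembly), NDUFB9 (complex I), ATP5J2 (ATP synthase), MRPL37 (ribosome), LONP1 (protease), GLRX2 (glutaredoxin) and GDAP1 (outer membrane). Of the 11 with a usable 3' UTR, 6 held GCCCGT. None of the 16 measured mitochondrially encoded genes was a member, beside 1.62% of all measured genes, a share at which so few genes often hold none. Their median siRNA-1 difference was -0.11.

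Enzymes of small-molecule metabolism included both a polyamine synthase and a polyamine catabolic enzyme. SAT1, which acetylates spermidine and spermine for breakdown or export, was at 123 FPKM with siRNA-1 and 372 FPKM with siRNA-2, against 315 and 334 FPKM in the controls. SRM, spermidine synthase, was at 51.2 FPKM with siRNA-1 and 106 FPKM with siRNA-2, against 108 and 116 FPKM in the controls. SMS, spermine synthase, moved the other way with siRNA-1, to 202 FPKM, against 113 and 118 FPKM in the controls (0.80 log2 units, limma adjusted p = 0.0227). ODC1, the first enzyme of the pathway, differed by -0.13, and AMD1, which supplies the aminopropyl donor, by -0.41, neither past the limma threshold. SMOX, spermine oxidase, was lower with siRNA-1 by limma (-0.76 log2 units, adjusted p = 0.0310), and its siRNA-2 difference was -0.73, so it was no member. The glycolytic enzyme TPI1 was at 246 FPKM with siRNA-1 and 575 FPKM with siRNA-2, against 514 and 525 FPKM in the controls, and it has processed pseudogenes that can take some of its reads. FLAD1 (FAD synthesis), LIPA (lysosomal acid lipase) and CA11 (a carbonic anhydrase-related protein) were the remaining members.

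Transcription factors gave 11 members. ZNF219, a zinc finger protein, was at 6.75 FPKM with siRNA-1 and 20.0 FPKM with siRNA-2, against 23.0 and 21.7 FPKM in the controls. MAFK, a small MAF protein that pairs with NRF2 at antioxidant response elements, was at 38.7 FPKM with siRNA-1 and 77.7 FPKM with siRNA-2, against 99.8 and 84.4 FPKM in the controls. For MAFK siRNA-2 was also below both controls, and its 3' UTR held GCCCGT in 2 places. The other small MAF genes differed by 0.62 (MAFF) and -0.25 (MAFG) with siRNA-1 and did not pass the limma threshold. Of the others, LMO4, MEF2D, PITX1, E2F2, MYBL2, FOXK1, ZNF300 and ZBED3 lay between -1.51 and -1.04.

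Chromatin and transcription machinery gave 10 members, 6 of them with the hexamer. ELOF1, an elongation factor of RNA polymerase II, was at 5.85 FPKM with siRNA-1 and 43.3 FPKM with siRNA-2, against 39.6 and 37.3 FPKM in the controls. The Mediator subunit MED29 was at 9.91 FPKM with siRNA-1 and 31.0 FPKM with siRNA-2, against 32.2 and 32.6 FPKM in the controls. MED22, another, was at 2.91 FPKM with siRNA-1 and 9.02 FPKM with siRNA-2, against 9.31 and 8.77 FPKM in the controls. Both were low with siRNA-1 alone, and MED29 held the hexamer in 1 place and MED22 in 3 places of the 3' UTR. Other Mediator subunits were spread widely with siRNA-1, from MED16 at -0.99 and MED11 at -0.93 to MED15 at 1.09, all 3 past the limma threshold (adjusted p = 0.0410, 0.0217 and 0.0196). MLLT1 (super elongation complex), JARID2 (a Polycomb partner), COPRS (a PRMT5 partner), H1F0 (a linker histone), MBD3 (NuRD complex), BRD3 (a bromodomain protein) and RPRD1A (an RNA polymerase II binding protein) were the rest.

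RNA-binding and RNA-processing proteins numbered 11. G3BP1, a core protein of stress granules, was at 15.7 FPKM with siRNA-1 and 71.9 FPKM with siRNA-2, against 62.0 and 59.1 FPKM in the controls. Its paralog G3BP2 was at 92.9 FPKM with siRNA-1 and 51.9 FPKM with siRNA-2, against 66.1 and 73.1 FPKM in the controls, differences of 0.41 and -0.42 in opposite directions, of which the siRNA-1 one did not pass (limma adjusted p = 0.116). ALKBH5 and RBM15B act on N6-methyladenosine in RNA, as an eraser and as a writer cofactor, and both were members, with siRNA-1 differences of -1.24 and -1.37. The others were SND1, DHX16, SNRNP25, RPP25, RBFOX3, MAK16, CHERP and CLUH. None of the 12 measured genes of the RNA interference machinery was a member, beside 1.62% of all measured genes, a share at which so few genes often hold none. Their median siRNA-1 difference was 0.13.

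**Figure D4:**
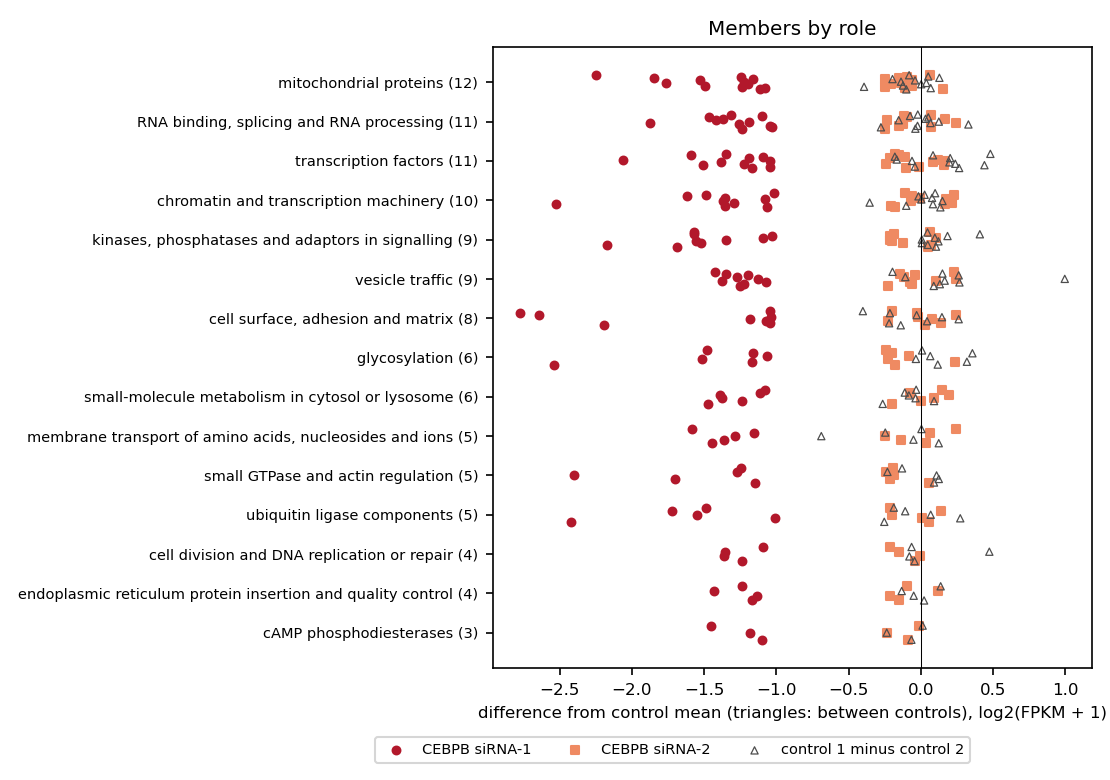
Log2(FPKM + 1) differences by role for groups of at least 3 members, with siRNA-1 (red circles) and siRNA-2 (orange squares) as differences from the control mean and open triangles as control 1 minus control 2. Group medians with siRNA-1 lie between -1.55 and -1.13, and the siRNA-2 squares overlap the triangles in every group.

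Ubiquitin ligase components had 5 members, none with GCCCGT in the 3' UTR. ASB4, a substrate adaptor of cullin ligases, was at 1.995 FPKM with siRNA-1 and 15.7 FPKM with siRNA-2, against 13.7 and 16.5 FPKM in the controls. SKP1, the adaptor of SCF ligases, was at 20.3 FPKM with siRNA-1 and 76.4 FPKM with siRNA-2, against 66.7 and 72.0 FPKM in the controls. Its partner CUL1 differed by 0.27 with siRNA-1. MAEA, ZNRF3 (which removes Frizzled receptors) and CHFR (a mitotic checkpoint ligase) were the other 3. Of 178 measured genes named UBE2, USP, FBXO, TRIM or RNF none was a member, beside 1.62% of all measured genes.

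Vesicle traffic gave 9 members between -1.42 and -1.07, among them AP3D1 and AP5S1 of the adaptor complexes AP-3 and AP-5, CHMP6 of ESCRT-III and the SNARE protein SNAP23. Endoplasmic reticulum insertion and quality control gave 4, EMC10, ASNA1 (the GET pathway ATPase), FAF2 and DNAJC3. Cell division, replication and repair gave KIF4A (a chromokinesin), RFC3 (a clamp loader subunit), OGG1 (the 8-oxoguanine glycosylase) and CEP57. Of 23 measured S phase genes and 26 G2 and M phase genes in the lists none was a member, beside 1.62% of all measured genes. At that share, lists of this size often hold none.

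Some members were the only ones of their kind or nearly so. LINC00473, a cAMP-responsive long non-coding RNA, was at 3.17 FPKM with siRNA-1 and 17.7 FPKM with siRNA-2, against 17.0 and 18.03 FPKM in the controls. PEG10, an imprinted gene derived from a retrotransposon, was at 32.5 FPKM with siRNA-1 and 106 FPKM with siRNA-2, against 109 and 133 FPKM in the controls. The hair keratin KRT81, which shares long stretches with neighbouring keratin genes and is uncertain for that reason, had the highest control mean, at 268 FPKM with siRNA-1 and 784 FPKM with siRNA-2, against 582 and 759 FPKM in the controls. In each case siRNA-1 alone was clear of the other 3 libraries. NMB, the peptide neuromedin B, was at 3.62 FPKM with siRNA-1 and 13.1 FPKM with siRNA-2, against 12.9 and 13.2 FPKM in the controls. No role group was given to 33 members, among them CMIP and TMEM106B.

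Lists of related genes gave the setting of the members. In the limma fit over 14068 genes, 902 (6.41%) were lower and 878 (6.24%) higher with siRNA-1, and 40 (0.284%) lower and 29 (0.206%) higher with siRNA-2. Of 30 NRF2 target genes tested, 14 were lower and 1 higher with siRNA-1 and 4 were lower with siRNA-2, and none of the 29 measured was a member. Of 27 complement and coagulation genes, 11 were lower and 6 higher with siRNA-1 and 4 lower with siRNA-2, again with no member among 19 measured. At the 1.62% share over all measured genes, lists of this size often hold none. The rule also leaves out genes low with siRNA-2, and the median siRNA-2 differences of these lists were -0.55 (NRF2 targets) and -0.57 (complement and coagulation). The integrin, laminin and collagen list had 0 lower and 19 higher of 37 with siRNA-1. Solute carriers held 4 members of 160 measured (2.5%), G protein signalling 2 of 33, glycosyltransferases 2 of 50 and genes named ZNF 2 of 184, beside 1.62% of all measured genes. Single members fell in axon guidance (PLXND1), WNT (ZNRF3), endoplasmic reticulum folding (DNAJC3), junctions and keratins (KRT81), kinesins (KIF4A), sorting (SNX19) and genes named TMEM (TMEM106B). The TGF-beta, NOTCH, cholesterol, RAB GTPase, cytosolic ribosomal and growth factor lists held none. For the members themselves limma called 142 of 148 lower with siRNA-1, beside 7.42% of all genes with a mean count of at least 100, which repeats the rule, and 0 with siRNA-2.

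The authors' own comparison, in their deposited table, sets both siRNA libraries against both controls. Its log2 fold change was negative for all 148 members, with a median of -0.62 (-1.31 to -0.11), beside -0.03 over all genes. The rule used the same libraries, so a negative value from pooled FPKM was fixed by it, and one from counts nearly so. The rule also set both siRNA libraries of this comparison apart, so the number of members called is not independent of it. A single member, TMEM106B, was lower with an adjusted p under 0.05 in the authors' deposited table (log2 fold change -1.07, adjusted p = 0.0279), beside 1.79% of all genes with a mean count of at least 100 and 1.42% of all 14675 genes with an adjusted p. At an unadjusted p under 0.05 the authors' deposited table lists 23 of the 148. The share over all genes at that threshold was not counted, so no comparison is drawn from it. The same quantity computed from the summed FPKM of each pair had a median of -0.60 and was within 0.1 of the authors' value in 114 members. It differed by over 0.25 in 12, with both signs. FMNL1 was at -1.31 in the authors' deposited table and -0.94 from FPKM, SKP1 at -0.11 and -0.52, MTUS1 at -0.67 and -0.29, and MST1R, the 1 member with a gap over 0.5, at -0.15 and -0.65. TMEM106B, the member the authors' deposited table calls, was at -1.07 there and -0.61 from FPKM. For these genes the counted reads and the transcript-length scaled levels thus gave unequal sizes from the same libraries.

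**Figure D5:**
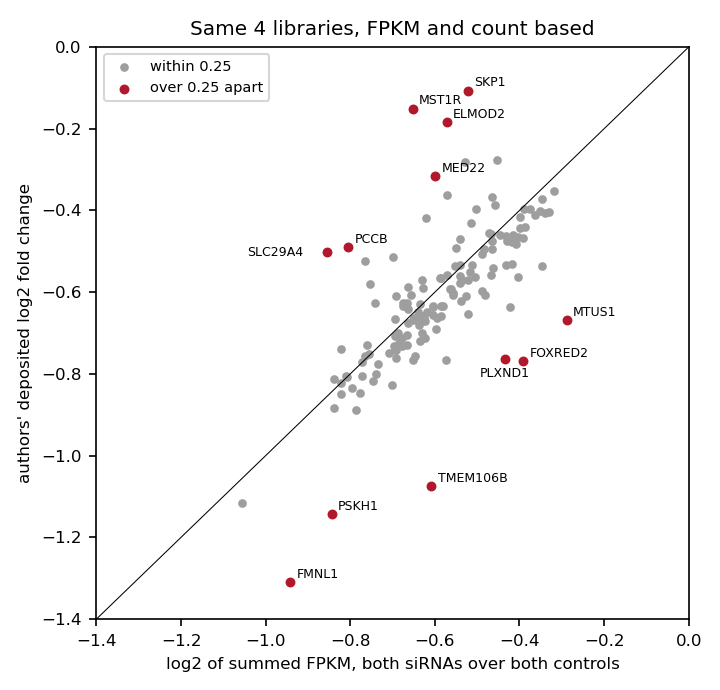
Authors' deposited log2 fold change of both siRNAs over both controls (y axis) against the log2 ratio of summed FPKM (x axis) for the 148 members, with a line of equality. Members over 0.25 apart (12, red) are named, and they lie on both sides of the line, from MST1R at -0.15 and -0.65 to FMNL1 at -1.31 and -0.94.

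Promoters and chromosomes were features that the rule did not use. RefSeq promoters (GRCh38.p14, from 250 bases before to 50 bases after the start) matched 116 members and 7502 measured genes by symbol or ID. The C/EBP core TTNCNNAA, on both strands, was in 24 member promoters (20.7%), against 24.7% of those of measured genes and 37.2% of all 27305 promoters of that length. The antioxidant response core TGACNNNGC was in 23 (19.8%), against 15.5% and 13.6%, and can overlap the AP-1 motif. The E-box CACGTG was in 13.8%, against 10.9% and 7.43%, TATAAA in 5.17%, against 4.93% and 11.95%, and the AP-1 motif TGANTCA in 4.31%, against 4.05% and 7.76%. No promoter is printed, because the member shares lay near those of measured genes. Chromosome 19 carried 19 members (12.8%), against 5.99% of measured genes, chromosome 1 carried 15 (10.1%, against 9.77%) and chromosome 17 carried 11 (7.43%, against 5.93%). Of the 148 members, 144 matched a GENCODE 29 gene by ID, and all 144 were protein coding there.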

How the data were processed

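Total RNA of 4 A549 libraries was sequenced with a strand-specific kit as 76-base single-end reads, per the labels' protocols. Per the submitters' processing notes the build was hg19, and the tools listed, without their roles, are DESeq2 1.26.0, HTSeq 0.13.5, StringTie 2.1.4 and STAR 2.7.0d. The deposited per-library values carry no unit in the file headers and were taken as FPKM, because the column sums differ between libraries. The signal column is the authors' mean normalized count, which summed to 8341083 and is the depth as far as it is known, and counts per library were not used here. The authors' log2 fold change, its standard error, their Wald score and their p-value columns are quoted as deposited.

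Members were found by the stated rule on log2(FPKM + 1), which understates changes of low genes. For each siRNA against control, limma 3.58.1 was run in R 4.3.3 with its trend option and 3 groups, on the 14068 genes averaging 1 FPKM or more, and calls had a Benjamini-Hochberg adjusted p under 0.05. Its 1 residual degree of freedom comes from the controls, so each siRNA library is assumed to vary as they do. limma combines it with a prior spread pooled over genes, worth a median of 3.92 degrees of freedom. In the median gene that pooled spread thus weighs more than the gene's own controls. The fit was tested on simulated data. Neither the members nor the lists are independent of the data: members, lists, roles and the hexamer search were chosen with earlier results of these data known. For 3' UTRs, GENCODE 29 (GRCh38) transcripts were matched by gene ID, 1 transcript a gene, 3' UTRs under 30 bases were left out and siRNA-1 differences were clipped at 2. Only sequences, not the files' hg19 positions, were joined.

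Genes named were the 30 members with the lowest siRNA-1 difference, the 10 with the highest control mean, members in a list, those nearest a threshold, members whose log2 fold change differed by over 0.5 between the authors' table and FPKM, and CEBPB. Not every such gene or sequence is reported here, and other genes were chosen after their values were seen. Alternatives changed the pseudocount, the filters, the thresholds, the scaling and the trend, and left out each control. Sequences of the siRNAs and counts per library are not analysed here.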

Additional observations from a re-analysis of the deposited data

How the results depend on the processing

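No paired analysis was possible because each siRNA has 1 library, so the groups share fewer than 2 replicate numbers. Membership depended on where its limits lay. Beside 148 members there were 283 at an siRNA-1 difference of at most -0.8, 78 at the stricter limit tried, 86 with siRNA-2 within 0.15, 223 within 0.5 and 65 with a mean count of at least 500. Leaving out a control gave 138 or 152 members, of which 113 and 120 were shared with the 148. A median-ratio scaling gave 118, of which 111 were shared, and moved the median of all genes by 0.03 (siRNA-1) and -0.06 (siRNA-2). With a pseudocount of 0.1 there were 187 members, of which 140 were shared, and their median siRNA-1 difference was -1.38. The share of members with GCCCGT was 27.9% at the -0.8 limit and 28.9% with siRNA-2 within 0.5, and 34.4% and 34.3% without control 1 or 2. GCCCGT ranked lowest in all 5 alternatives tried for the ranking, although its ranking value was only -3.94 without the length adjustment. In limma without the trend, 583 genes were lower with siRNA-1, and with siRNA-2 3 were lower and 3 higher. A pseudocount of 0.1 gave 4 lower and 4 higher with siRNA-2, and the scaling gave 73 and 61. Without a filter on low values limma called 0 lower and 0 higher with siRNA-1 (6299 at an unadjusted p under 0.05, against 4415 with the filter), and 4 lower and 885 higher with siRNA-2. The settings for the share with GCCCGT and for its ranking were added after the data were seen. The causes of these shifts were not tested. With 1 library per siRNA, depth and library differences limit every siRNA-1 value alike.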
